A study of Homo sapiens with 12 samples.

Results

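The genes described here encode the glycine cleavage system and the core enzymes of folate one-carbon metabolism. They are GLDC, AMT, GCSH and DLD, which make up glycine cleavage, and SHMT1, SHMT2, MTHFD1, MTHFD2 and MTHFD1L, which move the one-carbon unit on folate. The 9 genes were chosen by name from the 57500 Ensembl genes counted in HepG2, a cell line from a human hepatocellular carcinoma. The rule that lists them uses no measured value, but they were picked with earlier results of these data known.

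Glycine cleavage is a mitochondrial complex that is prominent in liver. GLDC, the P protein, takes carbon dioxide from glycine and passes the rest of the molecule to the lipoate arm of GCSH, the H protein. AMT, the T protein, then releases ammonia and loads a methylene group on tetrahydrofolate, and DLD, the L protein that other lipoate complexes also use, reoxidises the lipoate. The serine hydroxymethyltransferases SHMT2 in mitochondria and SHMT1 in the cytosol exchange serine and glycine while charging the same folate. In mitochondria MTHFD2 oxidises methylene-tetrahydrofolate and MTHFD1L releases formate, which the cytosolic trifunctional enzyme MTHFD1 returns to folate for purine, thymidylate and methyl group synthesis.

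The study asked how cells respond when thiosulfate sulfurtransferase (TST, an enzyme that detoxifies cyanide) is lowered or raised, and it sequenced total RNA from 12 libraries in 3 groups of 4. WT were wild-type control HepG2 cells, shTST carried an shRNA against TST and overTST carried a codon-optimized TST coding sequence under a CMV promoter. Both TST lines were made by lentiviral transduction and blasticidin selection (5 or 45 µg/ml), a handling that the methods do not describe for WT, and nothing states that either line is 1 clone. All 3 groups were kept for 24 h in normal medium with 400 µM glycine, so no group shows the genes without glycine.

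Each library held 22911380 to 45120508 counts on genes, with 27527854 to 33865386 in shTST and 22911380 to 27414142 in overTST. The share of counts on mitochondrially encoded genes was 6.91 to 11.98% in WT, 6.84 to 8.65% in shTST and 10.8 to 11.7% in overTST, and its part in the results was not tested. TST was at 47.2 to 52.8 CPM (counts scaled to 1000000 of the TMM-adjusted library) in WT and at 33.0 to 36.6 CPM in shTST, a log2 fold change of −0.52 (SE 0.055, edgeR adjusted p = 3.2e-06). In overTST it was at 51.8 to 62.1 CPM, which overlapped WT but passed the test as higher (log2 fold change 0.24, edgeR adjusted p = 0.00384). A correction for a trend of fold change with gene length ended that call (0.097, adjusted p = 0.201), and these counts need not include the codon-optimized transgene. All 10 hepatocyte markers examined were counted in every library, with a summed level of 21789 to 29011 CPM, while 8 markers of leukocytes, fibroblasts, endothelium and myeloid cells together reached 7.67 to 9.91 CPM. The leukocyte marker PTPRC was at 0 in every WT and overTST library. In bulk RNA, fewer expressing cells and less RNA per cell cannot be told apart.

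The promoters of MTHFD2 and MTHFD1L are shown because these were the members lower than WT in both TST lines. The stretch runs from 250 to 61 bases before the RefSeq transcription start, on the plus strand of GRCh38.p14, 5′ to 3′. Capitals mark matches to 3 motifs searched on both strands: CCAAT (the CCAAT box), CACGTG (an E-box, which is its own reverse complement) and TGATGNAA (the CARE element bound by ATF4 with C/EBP partners).
MTHFD2 at chr2:74198365-74198554: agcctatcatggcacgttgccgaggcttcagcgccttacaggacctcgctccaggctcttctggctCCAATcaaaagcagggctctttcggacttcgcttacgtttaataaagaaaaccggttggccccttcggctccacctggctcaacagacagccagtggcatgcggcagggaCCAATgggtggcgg
MTHFD1L at chr6:150866236-150866425: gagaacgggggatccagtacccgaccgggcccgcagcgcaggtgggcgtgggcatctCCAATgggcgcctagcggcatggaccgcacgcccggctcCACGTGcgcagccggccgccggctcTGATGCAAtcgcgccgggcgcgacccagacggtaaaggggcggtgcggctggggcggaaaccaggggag
MTHFD2 held 2 CCAAT boxes, at −184 to −180 and −74 to −70 from the start. MTHFD1L held 1 CCAAT box, an E-box at −154 to −149 and a CARE match at −129 to −122. That CARE match lies in an exon (150866333 to 150866387, or −153 to −99 from the start) of another MTHFD1L transcript in GENCODE 29. The E-box lies in the same exon except for its first base. The whole MTHFD1L stretch lies within the annotated span of the gene, which begins at 150865549. Of the 9 members, 8 had a RefSeq promoter entry and SHMT2 is named only. Over the whole 250 bases before the start, the CARE motif was in 1 of these 8 and in 3.19% of 27305 promoters. The E-box was in 2 of 8, MTHFD1L and MTHFD1, against 6.49% of all promoters, and the CCAAT box in 7 of 8 against 33.0%. The motifs did not overlap one another in these sequences, and a match of letters is not a measured binding site.

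The 9 genes lie on 9 chromosomes, with positions as the files give them on GRCh38. GLDC spans chr9 6532464 to 6645650 (minus strand), AMT chr3 49416775 to 49422753 (minus), GCSH chr16 81081961 to 81096403 (minus) and DLD chr7 107890970 to 107931730 (plus). SHMT2 spans chr12 57229327 to 57234935 (plus), SHMT1 chr17 18327860 to 18363563 (minus) and MTHFD1 chr14 64388031 to 64463457 (plus). MTHFD2 spans chr2 74198562 to 74217565 (plus) and MTHFD1L chr6 150865549 to 151101887 (plus). Counts were summed over all exons of a gene, untranslated parts included. For AMT, 63.1% of the 5746 exonic bases also belong to a read-through gene on the same strand (ENSG00000283189, 0 to 4 counts), so the AMT level is uncertain. For MTHFD2, 33.2% of the exonic bases face a gene on the other strand, of which SLC4A5 had 2 to 13 counts and ENSG00000264324 0 to 6. GCSH has 6 named pseudogenes, 5 at 0 counts and GCSHP5 at 4 to 16, and how reads that also match these copies were counted is not given in the sources used here.

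Per length, SHMT2 was the most abundant member in WT and AMT the least. On the RPKM scale (CPM divided by the exonic length in kilobases) SHMT2 was at 80.1 ± 3.03 (SD, n = 4) in WT. GLDC followed at 33.8 ± 1.52 RPKM, with all 4 libraries below SHMT2 and above the next gene. MTHFD2 at 27.9 ± 1.38, GCSH at 27.3 ± 1.54 and MTHFD1 at 26.8 ± 0.933 RPKM came next, and these 3 neighbours overlapped. Below them stood MTHFD1L at 18.7 ± 0.640, DLD at 15.1 ± 0.503 and SHMT1 at 9.63 ± 0.381 RPKM, each apart from its neighbours. AMT was at 0.396 ± 0.0952 RPKM, on 57 to 100 counts a library. The RNAs for the P, H and L proteins of glycine cleavage thus stood between percentiles 80.1 and 90.8 of the genes tested, and the RNA for the T protein at percentile 15.1. Over the 2122 exonic bases that AMT does not share, the same counts would give 0.900 to 1.45 RPKM in WT, still below every other member. All these levels, and the order of the genes, depend on the annotated length, which covers every exon of a gene.

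**Figure D1:**
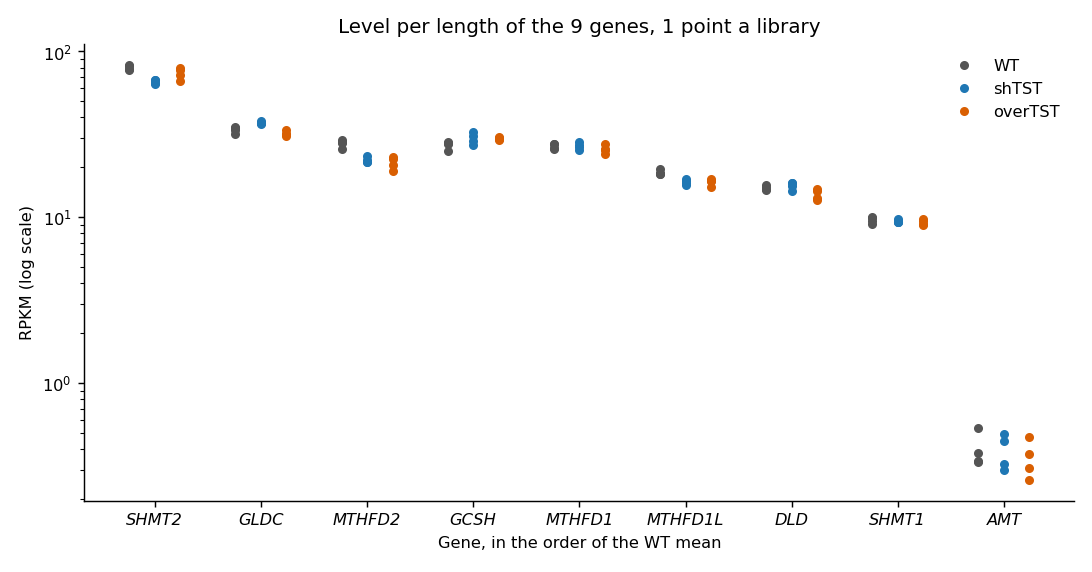
Level per length (RPKM, log scale) of the 9 genes in the order of their WT mean, with 1 point for each library and a colour for each group. SHMT2 lies above and AMT below the other genes in every library, and MTHFD2 lies below GCSH and MTHFD1 in shTST and overTST.

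The order changed in 1 place between the groups. In WT, MTHFD2 was just above GCSH and MTHFD1 and overlapped both, whereas in shTST it stood below them at 22.2 ± 0.825 RPKM, with every library below every library of MTHFD1. In overTST it was again below them, at 21.4 ± 1.82 RPKM, and every library was below those of MTHFD1. Replicate spread was small for 8 of the 9 genes, with a coefficient of variation of 1.46 to 8.54% within a group against a counting error of 0.743 to 2.87%. For AMT the coefficient was 23.9 to 25.9% and the counting error 10 to 16.0%, so changes of AMT within its interval were not detectable in these libraries. Over all genes the WT libraries differed more from one another. A chi-square per gene between 2 libraries of a group, which grows with depth, was 5.87 to 35.3 in WT. It was 4.41 to 8.20 in shTST and 3.58 to 9.64 in overTST. Both comparisons with WT rest on these WT libraries.

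With TST silencing the mitochondrial folate enzymes MTHFD2, SHMT2 and MTHFD1L were lower and GLDC, the glycine decarboxylase, was higher than in WT. Their cytosolic counterparts SHMT1 and MTHFD1 did not pass the test, nor did AMT, GCSH and DLD. Thus 1 of 9 members was higher and 3 were lower at an adjusted p of 0.05 or less in edgeR's quasi-likelihood test. Of all 14584 genes tested, 6.69% were higher and 9.4% lower. That is 975 and 1371 genes, and 1284 and 1151 with upper-quartile normalization, which left the members' counts as they were. In the same 4 genes the shTST and WT libraries did not overlap, 1 higher and 3 lower, where 8.37% of all genes were without overlap and higher and 10.8% without overlap and lower. The median log2 fold change of the members was −0.0062, that of all genes 0.0040.

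MTHFD2, the mitochondrial methylene-tetrahydrofolate dehydrogenase, had 142, 136, 126 and 138 CPM in WT replicates 1 to 4. In shTST the values were 114, 105, 105 and 108 CPM. The groups did not overlap, and the lowest WT value, 126 CPM, stood clear of the highest in shTST, 114 CPM. MTHFD2 fell by 20.4% (log2 fold change −0.33, SE 0.046, edgeR adjusted p = 6.9e-05, two-sided exact permutation p = 0.0286, the smallest that 4 against 4 can give).

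SHMT2, which makes glycine from serine in mitochondria, had 377, 398, 373 and 402 CPM in WT and 307, 312, 324 and 328 CPM in shTST. All 4 shTST libraries were below the lowest WT library, and SHMT2 fell by 18.1% (log2 fold change −0.29, SE 0.043, edgeR adjusted p = 1.3e-04, exact permutation p = 0.0286). MTHFD1L, the mitochondrial formate-releasing enzyme, had 91.6, 93.1, 91.7 and 98.4 CPM in WT and 83.6, 85.6, 79.0 and 81.1 CPM in shTST. All 4 shTST libraries were again below WT, with a smaller difference of −0.19 log2 (SE 0.045, edgeR adjusted p = 0.00656).

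GLDC had 164, 148, 162 and 156 CPM in WT and 170.3, 173, 176 and 174 CPM in shTST. The shTST libraries were tightly grouped above all WT libraries, and GLDC was 10.2% higher (log2 fold change 0.14, SE 0.043, edgeR adjusted p = 0.0271, exact permutation p = 0.0286). This call was lost without a filter on low counts (adjusted p = 0.0757) and when 1 of 4 libraries was left out of the edgeR fit: replicate 2 of WT (adjusted p = 0.0844), replicate 4 of WT (0.0709), or replicates 3 (0.0631) and 4 (0.0640) of shTST, each alone. The direction was kept in each of these fits.

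The remaining members had intervals that included little or no change. GCSH, the lipoate-bearing H protein, ranged from 47.1 to 53.4 CPM in WT and from 51.3 to 61.0 CPM in shTST, a log2 fold change of 0.13 with an interval of ± 2 SE from 0.017 to 0.25 (edgeR adjusted p = 0.123). For DLD the log2 fold change was 0.042 (interval −0.051 to 0.14), for SHMT1 −0.019 (−0.11 to 0.073) and for MTHFD1 0.010 (−0.078 to 0.098). The groups of all these genes overlapped. AMT had a log2 fold change of −0.0062 with the wide interval of −0.39 to 0.37.

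**Figure D2:**
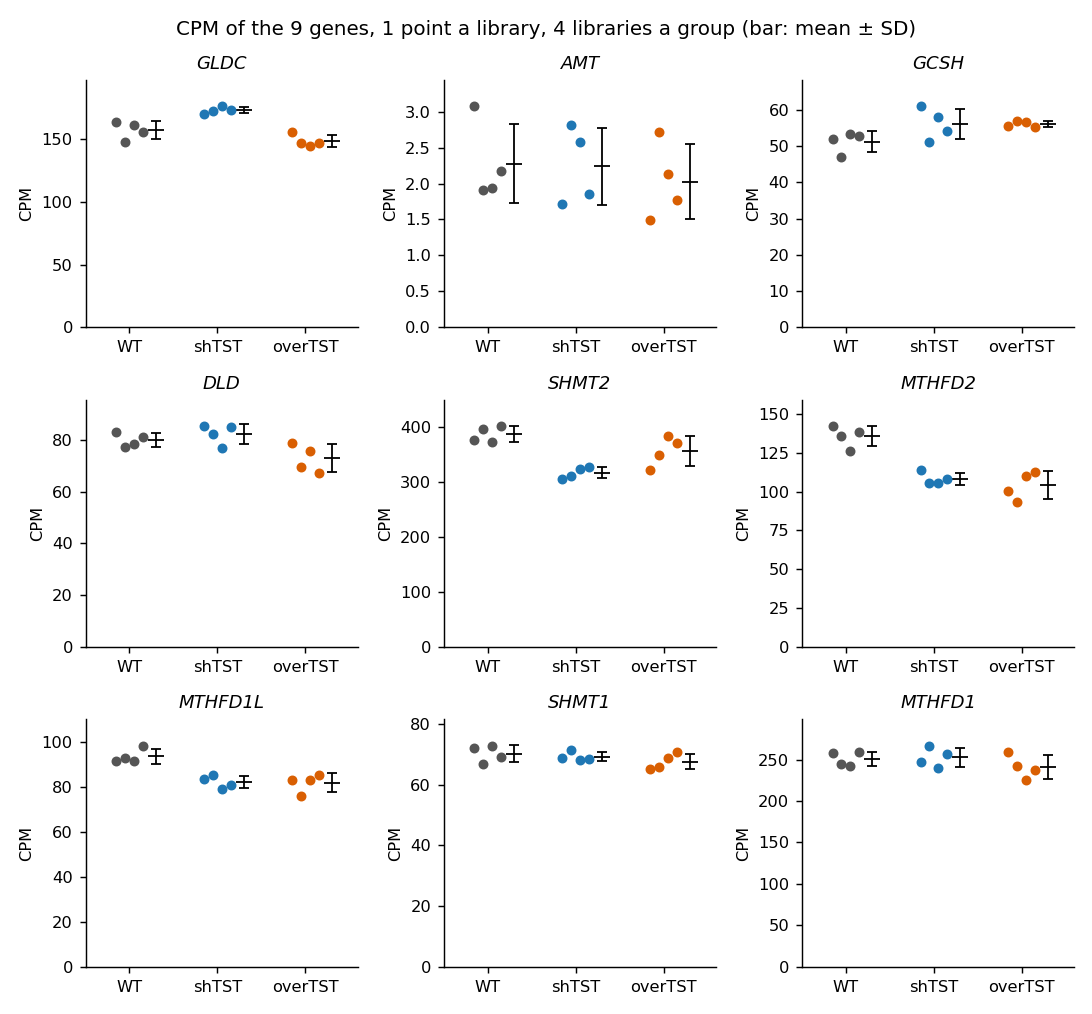
CPM of each gene in each of the 12 libraries, 4 points a group, with the mean ± SD beside them and axes from 0. MTHFD2 and MTHFD1L lie below WT in both TST lines without overlap, SHMT2 only in shTST, and GLDC lies above WT in shTST.

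With TST overexpression MTHFD2 and MTHFD1L were lower than in WT and no member was higher. Of 9 members, 0 were higher and 2 lower, against 15.7% and 18.2% of the 14421 genes tested. At an unadjusted p under 0.05 edgeR counted 1 member higher, GCSH, and DESeq2 and limma-voom counted 0 after adjustment. Without overlap between the groups, 1 member was higher and 2 were lower, where 14.2% and 16.2% of all genes were. The members' median log2 fold change was −0.12, that of all genes 0.0019. Both TST lines were compared with the same 4 WT libraries, so their values are set side by side and their likeness was not tested.

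MTHFD2 had 101, 93.2, 109.9 and 113 CPM in overTST, all below the 126 to 142 CPM of WT. It fell by 23.3% (log2 fold change −0.38, SE 0.058, edgeR adjusted p = 2.3e-05), beside 20.4% in shTST. MTHFD1L had 83.4, 76.2, 83.3 and 85.5 CPM in overTST, also below every WT library. Its log2 fold change was −0.19 (SE 0.052, edgeR adjusted p = 0.00603), beside −0.19 in shTST.

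SHMT2 had 323, 349.6, 385 and 372 CPM in overTST, of which replicate 3 reached into the WT range. Its log2 fold change of −0.12 (interval −0.22 to −0.010) did not pass the test (edgeR adjusted p = 0.0943), although it did without a filter on low counts (adjusted p = 0.0406) and with a correction for GC content (0.0202). GCSH had 55.6, 57.0, 56.8 and 55.2 CPM, a narrow range above all WT libraries (exact permutation p = 0.0286). Its log2 fold change of 0.13 had an edgeR adjusted p of 0.0688. It passed with upper-quartile normalization (0.0314) and with the GC correction (0.00642), and the sign turned to −0.015 after a correction for a trend with gene length.

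DLD had 78.8, 69.3, 75.8 and 67.2 CPM in overTST against 77.3 to 83.1 in WT, an overlap at replicate 1. Its log2 fold change was −0.13 (interval −0.24 to −0.020, edgeR adjusted p = 0.0726), and without overTST replicate 1 the adjusted p was 0.0153. GLDC had 156, 147, 145 and 147 CPM in overTST, overlapping WT, with a log2 fold change of −0.080 (interval −0.18 to 0.019). The log2 fold changes of SHMT1 (−0.053, interval −0.16 to 0.052) and MTHFD1 (−0.058, interval −0.16 to 0.044) had intervals that included 0, and the length correction turned both to positive values. For AMT the log2 fold change was −0.16 with an interval of −0.56 to 0.24.

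**Figure D3:**
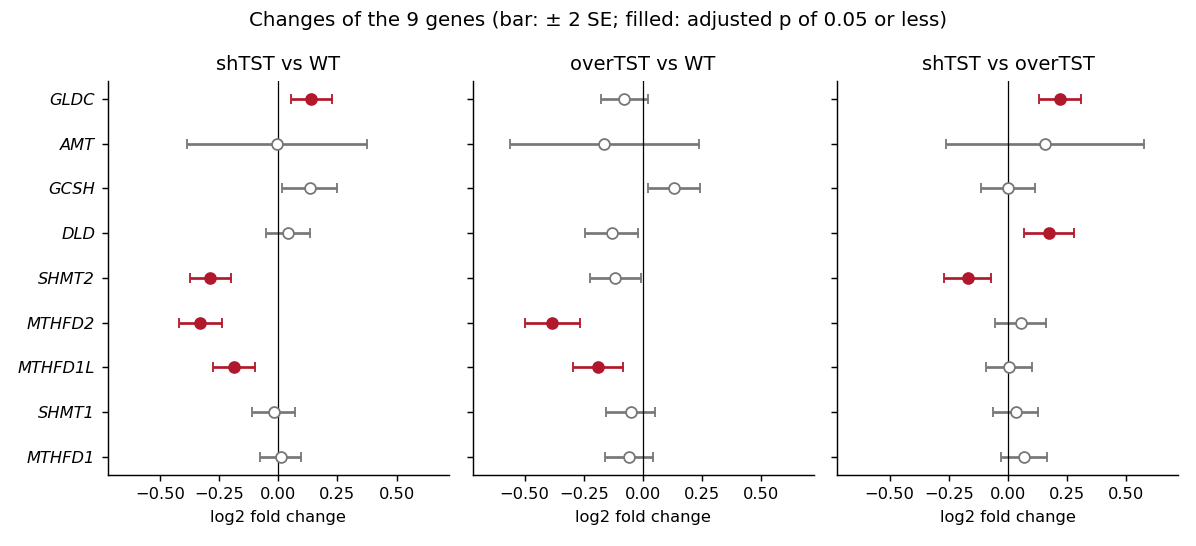
log2 fold change of each gene in the 3 comparisons, with bars of ± 2 SE and filled points at an adjusted p of 0.05 or less. MTHFD2 and MTHFD1L are below 0 against WT in both lines and near 0 between the lines, while GLDC, DLD and SHMT2 differ between the lines.

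The lines differed from each other in GLDC, DLD and SHMT2. In the fit of all 12 libraries 2 of 9 members were higher and 1 lower in shTST than in overTST, against 16.9% and 16.1% of 14883 genes. GLDC at 170.3 to 176 CPM in shTST did not overlap its 145 to 156 CPM in overTST (log2 difference 0.22, SE 0.044, edgeR adjusted p = 4.3e-04). SHMT2 was lower in shTST by 0.17 log2 units (SE 0.050, adjusted p = 0.0101) and DLD higher by 0.17 (SE 0.053, adjusted p = 0.0133), and in both the groups overlapped. For SHMT2, shTST replicates 3 and 4 were above overTST replicate 1, and for DLD, shTST replicate 3 was below overTST replicate 1. After the GC correction the adjusted p was 0.112 for SHMT2 and 0.362 for DLD. The DLD call also rested on overTST replicates 2 and 4 (adjusted p = 0.0514 and 0.0649 without each), and the SHMT2 call on overTST replicate 3 (0.0633 without it). MTHFD2 and MTHFD1L, lower than WT in both lines, differed between the lines by 0.054 (interval −0.055 to 0.16) and 0.0037 (interval −0.092 to 0.10) log2 units.

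Ratios within a library set the mitochondrial enzymes against their cytosolic partners without any scaling between libraries. The ratio of SHMT2 to SHMT1 in RPKM was 7.71 to 8.97 in WT, 6.58 to 7.20 in shTST and 7.46 to 8.43 in overTST. The shTST libraries were below all others, whereas overTST overlapped WT. The ratio of MTHFD2 to MTHFD1 was 1.003 to 1.07 in WT, 0.760 to 0.884 in shTST and 0.742 to 0.941 in overTST. Both TST lines thus held more MTHFD1 than MTHFD2 per length in every library, while WT held at least as much MTHFD2. MTHFD1L to MTHFD1 was 0.663 to 0.712 in WT, 0.591 to 0.630 in shTST and 0.588 to 0.692 in overTST, the last overlapping WT. GLDC to SHMT2, the enzymes that split and make glycine with the same folate, was 0.387 to 0.451 in WT, 0.550 to 0.577 in shTST and 0.391 to 0.502 in overTST. No ratio was tested, since their genes were also tested singly.

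**Figure D4:**
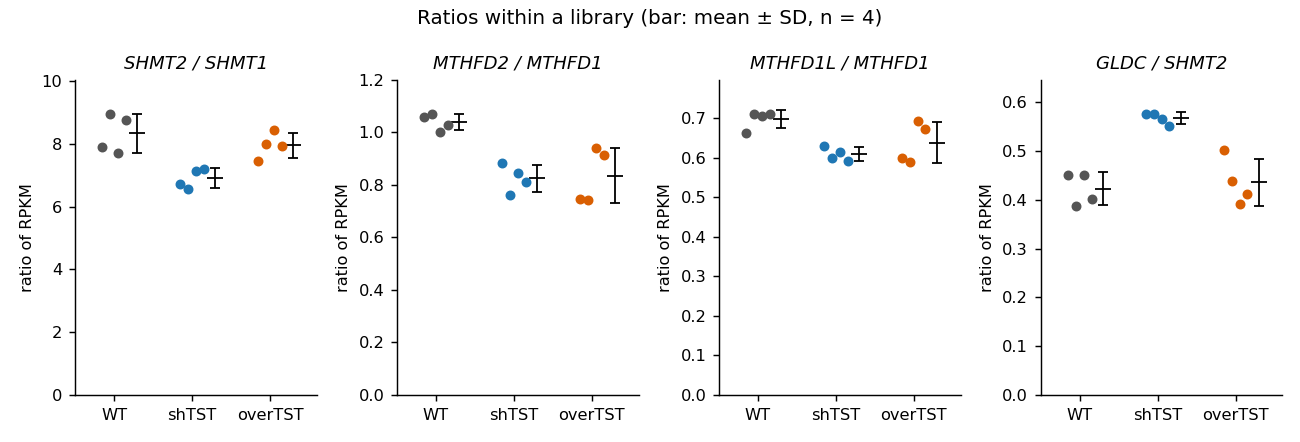
Ratio of RPKM of 2 genes within each library, 4 points a group with the mean ± SD, axes from 0. The shTST libraries are below WT for the 3 mitochondrial-to-cytosolic ratios and above WT for GLDC to SHMT2.

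The other genes of the pathway were read from 8 lists with 84 genes, of which 78 were counted highly enough to be tested. With TST silencing 6 of the 78 were higher and 17 lower, beside 6.69% and 9.4% of all genes tested. The 6 became 2 without WT replicate 2 and 3 without WT replicate 4 or without a filter on low counts, and the 17 became 11 without WT replicate 4. With TST overexpression 12 were higher and 22 lower, beside 15.7% and 18.2% of all genes. Between the lines 11 were higher and 18 lower in shTST than in overTST, beside 16.9% and 16.1%, and the 18 became 11 without the filter. The 3 serine synthesis enzymes supply the substrate of SHMT2. PHGDH, the first of them, went from 304 ± 12.9 CPM in WT to 249 ± 5.41 in shTST (SD, n = 4 each, log2 fold change −0.28, edgeR adjusted p = 1.3e-04). PSAT1, the second, was lower in shTST (−0.15, adjusted p = 0.0263) and in overTST (−0.14, adjusted p = 0.0393), calls that were lost with upper-quartile normalization (adjusted p = 0.0632 and 0.103) and in some fits with 1 library left out (up to 0.113 and 0.142). PSPH passed in neither line.

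Among carriers of serine and glycine more genes were lower than higher. Of 12 tested, 1 was higher and 5 were lower in shTST, with a median log2 fold change of −0.17. All genes tested had 6.69% higher, 9.4% lower and a median of 0.0040. In overTST 1 was higher and 8 were lower, with a median of −0.28, where all genes had 15.7% higher, 18.2% lower and a median of 0.0019. In shTST the neutral amino acid exchanger SLC1A5 (log2 fold change −0.38, edgeR adjusted p = 1.8e-05) and the glycine transporter SLC6A9 (−0.36, adjusted p = 3.6e-04) were lower. SFXN2, of the sideroflexin family of mitochondrial carriers, was higher (0.31, adjusted p = 0.00269). In overTST the proton-coupled transporter SLC36A1 (−0.48, adjusted p = 1.1e-04), SLC38A1 (−0.30, adjusted p = 1.4e-04) and SLC1A4 (−0.26, adjusted p = 1.6e-04) were lower. Each of these carriers passed in the same direction in the other line too. SLC6A9 (−0.41, adjusted p = 7.6e-04), SLC1A5 (−0.15, adjusted p = 0.0237) and SFXN2 (0.27, adjusted p = 0.00540) did so in overTST. SLC36A1 (−0.28, adjusted p = 0.0178), SLC38A1 (−0.19, adjusted p = 0.0156) and SLC1A4 (−0.21, adjusted p = 0.00455) did so in shTST.

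Among 16 other folate enzymes and carriers tested, 0 were lower in shTST, also at an unadjusted p under 0.05 and by DESeq2 and limma-voom. Of all genes tested, 9.4% were lower in shTST. In overTST 3 were higher and 5 lower, beside 15.7% and 18.2% of all genes. MTRR, the methionine synthase reductase, was at −0.35 (adjusted p = 1.6e-04) and FTCD, which feeds histidine carbon to folate, at 0.26 (adjusted p = 6.5e-04). MTHFS, which recovers formyl-tetrahydrofolate, was at 0.30 (adjusted p = 5.5e-04), and the length correction ended this call (adjusted p = 0.0718).

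Of 13 other enzymes that make or use glycine, 1 was higher and 1 lower in shTST, shares near the 6.69% and 9.4% of all genes. GNMT, which methylates glycine, rose from 4.88 ± 0.534 to 6.92 ± 0.494 CPM (SD, n = 4 each, log2 fold change 0.52, edgeR adjusted p = 0.00213), and SARDH, which returns sarcosine to glycine, was lower (−0.18, adjusted p = 0.0128). The SARDH call was lost without WT replicate 4 (adjusted p = 0.0671) or shTST replicate 1 (0.0737) and with the GC correction (−0.094, adjusted p = 0.125). In overTST 2 of the 13 were higher, a share near the 15.7% of all genes, namely GSS (0.17, adjusted p = 0.0134) and AGXT (0.23, adjusted p = 0.0269). The length correction ended the GSS call (0.775), and leaving out single libraries raised the AGXT value to as much as 0.109.

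The list of 6 genes for lipoate synthesis and attachment, on which GCSH depends, had 0 members past the threshold in shTST and 2 higher in overTST, MECR (0.22, adjusted p = 0.0249) and MCAT (0.19, adjusted p = 0.0275), which act in mitochondrial fatty acid synthesis. Of all genes, 6.69% were higher and 9.4% lower in shTST, and 15.7% were higher in overTST. In shTST 1 of the 6 was higher at an unadjusted edgeR p under 0.05, and DESeq2 and limma-voom called 0. Left-out libraries raised the adjusted p of MECR and MCAT in overTST to as much as 0.0869 and 0.115, and the length correction that of MCAT to 0.383. Among 10 subunits of the other complexes that use DLD, 1 was higher and 2 were lower in each line. In overTST that is near the 15.7% and 18.2% of all genes, and in shTST all genes had 6.69% and 9.4%. OGDH, of the oxoglutarate dehydrogenase complex, was lower in shTST (−0.21, adjusted p = 0.00516) and in overTST (−0.22, adjusted p = 0.00267). PDHA1, of pyruvate dehydrogenase, was higher in overTST (0.18, adjusted p = 0.00585).

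Purine and thymidylate synthesis uses the carbon that these enzymes supply. Of 7 genes tested, 2 were higher and 1 lower in shTST, beside 6.69% and 9.4% of all genes. PFAS was lower (−0.17, adjusted p = 0.0118, and 0.0577 without shTST replicate 1), and TYMS (0.14, adjusted p = 0.0329) and PAICS (0.13, adjusted p = 0.0451) were higher, calls lost without a filter on low counts (adjusted p = 0.0785 and 0.130) and in fits with 1 library left out (up to 0.110 and 0.135). In overTST 1 was higher, a share near the 15.7% of all genes, and 3 were lower, beside 18.2%. PAICS was higher (0.19, adjusted p = 0.00243), as in shTST. The lower genes were PFAS (−0.27, adjusted p = 4.6e-04), PPAT (−0.27, adjusted p = 8.1e-04) and GART (−0.23, adjusted p = 9.6e-04).

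The transcription factor ATF4 and its amino-acid response targets, known to include MTHFD2, SHMT2 and the serine enzymes, had 0 of 11 higher and 6 lower in shTST and 2 higher and 3 lower in overTST. ATF4 itself passed in neither line against WT. Its log2 fold change was −0.076 in shTST (edgeR adjusted p = 0.381) and 0.14 in overTST (edgeR adjusted p = 0.0961). Of all genes tested, 6.69% were higher and 9.4% lower in shTST, and 15.7% and 18.2% in overTST. In shTST SLC7A11, the cystine exchanger, was lower by 0.81 log2 units (adjusted p = 7.8e-07) and ASNS, the asparagine synthetase, by 0.71 (adjusted p = 2.6e-07). In overTST SLC7A11 (−0.65, adjusted p = 1.7e-05) and VLDLR (−0.74, adjusted p = 1.7e-05) were lower and DDIT3 was higher (1.01, adjusted p = 1.7e-05). ASNS was lower in overTST as well (−0.34, adjusted p = 9.4e-04), and VLDLR in shTST (−0.45, adjusted p = 0.00445). Between the lines 6 of the 11 were lower in shTST than in overTST and 0 higher, beside 16.1% and 16.9% of all genes. TRIB3, a stress-induced pseudokinase, was at −0.43 (adjusted p = 6.2e-06) and ASNS at −0.36 (adjusted p = 6.8e-04). Of these 0 counts, each had 1 gene higher at an unadjusted edgeR p under 0.05 and 0 by DESeq2 and limma-voom. The median over the 11 genes was −0.14 in shTST and 0.028 in overTST, beside 0.0040 and 0.0019 over all genes tested.

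The genes whose log2 CPM across the 12 libraries was most like that of each member are given as a description, with the value after removal of the group means beside it, since libraries share their group and depth. SHMT2 was most like PHGDH, with r = 0.967 over 12 libraries and 0.907 within groups. GLDC was most like ARL6IP1 (r = 0.959, within groups 0.881) and TMPRSS6 (0.956 and 0.812). MTHFD2 was most like ACSL3 (0.939 and 0.703) and IPO13 (0.938 and 0.545), and MTHFD1L most like KDM3A (0.929 and 0.867). DLD was most like UFL1 (0.966 and 0.960), GCSH most like PTMA (0.909 and 0.847), MTHFD1 most like CHD1L (0.948 and 0.937) and SHMT1 most like ACTR1B (0.931 and 0.929). No member was the nearest gene of another, and AMT was counted too low to be included. Over pairs of members r ran from −0.684 (GLDC with SHMT2, −0.635 within groups) to 0.913 (MTHFD2 with MTHFD1L, 0.620 within groups).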

How the data were processed

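Total RNA of 12 HepG2 libraries (WT, shTST and overTST, 4 each) was analysed, with groups and replicate numbers from the sample titles. Titles do not say whether replicates were separate cultures, so p-values measure the spread between these libraries. The authors deposited unnormalized whole-number read counts for each Ensembl gene, beside its exonic length. Their processing notes name Trimmomatic 0.36, STAR 2.5.2b, featureCounts from Subread 1.5.2 and GRCh38, while the annotation release, use of strand and handling of multi-hit reads are not given in the sources used here.

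Each TST line was compared with WT on its own 8 libraries, and the lines with each other in a fit of 12 libraries. The whole table was fitted in R 4.3.3 with edgeR 4.0.16 (filterByExpr, TMM, quasi-likelihood test, Benjamini-Hochberg adjustment at 0.05), and this test makes every call. SE is the log2 fold change over the square root of F. CPM and RPKM used TMM over 12 libraries. Depth of 22911380 to 45120508 counts set the counting error, which is given beside the replicate spread and covers counting only. Alternatives used DESeq2 1.42.0, limma 3.58.1, other normalizations and filters, the replicate number as a block, length and GC corrections (lowess, span 0.3, the GC correction added after the data were seen) and left-out libraries. The procedures were first checked on simulated data in which 200 genes were changed. The members and lists were chosen with earlier results of these data known. Named were the 9 members, TST, up to 3 genes of each list and comparison with the smallest adjusted p among those past the threshold, and the genes most like each member among the 9141 whose average log2 CPM reached 3. Results of 1 gene that this rule names are not reported here. Python 3.11.15, scipy 1.17.1 and matplotlib 3.10.9 were used for exact permutation tests and plots. Promoter sequences are from RefSeq.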

Additional observations from a re-analysis of the deposited data

Results flagged for a closer look

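Among 27 sets of 4 libraries (9 genes in 3 groups), 1 library stood apart from the others of its group by Dixon's criterion for an outlying value. In shTST, SHMT1 was at 71.3 CPM in replicate 2 and at 68.3 to 68.6 CPM in the other 3. Chance alone would mark about 1 in 20 such sets, and the replicate 2 value lies within the WT range of 66.7 to 72.8 CPM.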

How the results depend on the processing

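The lower calls of MTHFD2, SHMT2 and MTHFD1L in shTST and of MTHFD2 and MTHFD1L in overTST held in all 11 alternatives and all 8 fits with a library left out. The call of GLDC as higher in shTST than in overTST held likewise, there in 12 left-out fits. AMT, on 39 to 100 counts a library, had a counting error of 10 to 16.0% within a replicate spread of 23.9 to 25.9%. Where an alternative below changed a value, the cause was not tested, except that a left-out library means fewer samples.

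In shTST, fitting without a filter counted 0 members higher (GLDC 0.13 log2, adjusted p = 0.0757) and gave −0.0011 for MTHFD1. AMT turned to 0.0047 with limma-voom, 0.014 with upper-quartile normalization, 0.0052 with the length correction and 0.016 with the GC correction. SHMT1 turned to 0.0017 with upper-quartile normalization, and the GC correction turned DLD to −0.0012 and MTHFD1 to −0.0080. In overTST, upper-quartile normalization and the GC correction each counted 1 member higher, GCSH at 0.16 and 0.20. The length correction gave −0.015 for GCSH, 0.040 for SHMT1 and 0.077 for MTHFD1. SHMT2 passed without a filter (−0.14) and with the GC correction (−0.15). Between shTST and overTST, the GC correction left 1 member higher and 0 lower in shTST, with DLD at 0.055, SHMT2 at −0.096, GCSH at −0.11 and MTHFD2 at −0.047. GCSH, at 0.00016 in the reported fit, was −0.0018 with DESeq2 and with RLE normalization, −0.0031 with limma-voom, −0.0084 with upper-quartile normalization and −0.0020 with the 1 CPM filter. MTHFD1L was −0.0054 with upper-quartile normalization, and the length correction gave −0.026 for MTHFD1L, −0.046 for SHMT1 and −0.047 for MTHFD1.

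The deviations of same-numbered libraries correlated weakly at most (−0.0527 to 0.0801 between shTST and WT, −0.00217 to 0.0539 between overTST and WT and −0.00498 to 0.0297 between the lines). Of 4 libraries, 3, 2 and 1 correlated best with their own number. So few libraries cannot tell whether the numbers pair the samples. With the number as a block, 1247 genes were higher and 1733 lower in shTST than in WT, beside 975 and 1371 without it. In overTST the block gave 2408 and 2758, beside 2265 and 2628. With the replicate block DLD passed in overTST (−0.14, adjusted p = 0.0367) and GCSH was −0.0021 between the lines. The length correction with replicate block gave 0.0097 for AMT in shTST, −0.015 for GCSH, 0.040 for SHMT1 and 0.077 for MTHFD1 in overTST, and 0.13 for GCSH (adjusted p = 0.0364), −0.046 for SHMT1, −0.047 for MTHFD1 and −0.025 for MTHFD1L between the lines. The block ended no call of a member.

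With each library left out in turn, members higher in shTST numbered 0 to 2, where GCSH (0.091 to 0.18 log2) passed without shTST replicate 2 and GLDC (0.11 to 0.16) failed in 4 of 8 fits. Without shTST replicate 1, 644 genes were higher and 869 lower in shTST. AMT ranged from −0.12 to 0.17, SHMT1 from −0.043 to 0.0015 and MTHFD1 from −0.011 to 0.037. In overTST, AMT ranged from −0.33 to 0.014 and DLD from −0.17 to −0.097. Between the lines 1 to 2 members were higher and 0 to 1 lower in shTST, with DLD at 0.14 to 0.22, SHMT2 at −0.22 to −0.13, GCSH at −0.042 to 0.041 and MTHFD1L at −0.030 to 0.024.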
